A study of Rattus norvegicus with 12 samples.

Results

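The 10 genes Muc2, Zg16, Fcgbp, Clca1, Agr2, Tff3, Retnlb, Spink4, Reg4 and Spdef encode the mucus and secretory products of goblet cells, with the factors that make and mature them. They were taken by symbol from the gene spots of 12 arrays of rat colon, and all 10 were among the 10451 genes tested. The genes were chosen by their diet differences, their levels in arrays with high Hoxb6 and their high values in single arrays, as earlier results of these arrays showed them. Member values by diet and by array are therefore a description, with no test. The diets were high protein (6 arrays) and normal protein (6 arrays), each eaten for 6 weeks. All animals were male Wistar rats weighing 180 to 200 g, and all samples were labelled colonic epithelium. The diets' composition, the animals' age and the stretch of colon sampled are not stated in the labels. No label says that replicates came from separate animals, so any p-value measures only the spread between these samples.

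Goblet cells are the mucus-secreting cells of the intestinal lining. Their main product, the gel-forming mucin Muc2, is joined into large nets in the endoplasmic reticulum and Golgi, heavily glycosylated, packed into granules and released with smaller proteins into the mucus layer that keeps bacteria off the epithelium. In the colon the make-up of mucus differs along the length of the organ, and Hox genes are expressed in different stretches along the same axis.

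Values are log2 intensities after background correction and joint normalization of the arrays, and each diet difference is the high protein mean minus the normal protein mean. Between 42.7% and 55.9% of the 42877 gene spots of an array were flagged good by the scanner software, and pairs of arrays correlated between 0.954 and 0.986 across probes. The label was checked against markers. All 8 epithelial markers were tested, with a mean level per array of 11.52 to 12.21 on high protein and 11.51 to 12.29 on normal protein. Smooth muscle markers (9 of 10 tested) had a mean of 10.28 to 11.29 on high protein and 10.95 to 11.56 on normal protein, so muscle transcripts were present in all samples. Macrophage markers (9 of 10 tested) had a mean of 8.08 to 8.70 on high protein and 8.58 to 9.04 on normal protein. Colonocyte markers (13 of 14 tested) had 10.64 to 11.89 on high protein and 10.80 to 11.84 on normal protein, and fibroblast markers (7 of 7 tested) 10.35 to 10.83 on high protein and 10.50 to 11.08 on normal protein. Of 12 lymphocyte and plasma cell markers only 3 were tested, with a mean of 6.91 to 8.47 on high protein and 6.86 to 8.61 on normal protein. The part of these other cells in the member differences was not tested.

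The arrays were also described by Hoxb6 and Hoxb13, which encode homeodomain proteins and are expressed in different stretches of the gut. Hoxb6 was above 10 in 3 arrays, high protein replicate 3 at 10.87, high protein replicate 4 at 10.82 and normal protein replicate 6 at 10.95. The next lower array had 7.49, so no array lay near the limit of 10. Its neighbour Hoxb7 was at 10.29 to 10.81 in the same 3 arrays and at 6.38 to 7.08 in the other 9. Hoxb13 was above 11 in 6 arrays, high protein replicates 1, 2, 5 and 6 at 12.03 to 12.56 and normal protein replicates 1 and 2, the higher at 12.05. It was 5.83 to 9.32 in the remaining arrays, which include the 3 with high Hoxb6. Both classes thus hold both diets in unequal numbers, with 2 high protein arrays and 1 normal protein array of high Hoxb6, and 4 high protein and 2 normal protein arrays of high Hoxb13. The 6 arrays of high Hoxb13 were singled out after their values were seen. They are not groups of the study, and no sample label gives a position.

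Retnlb and Reg4 were a gene low and a gene high in the arrays of high Hoxb6. Muc2 and Agr2 were among the 3 members that split with Hoxb13. To show what lies upstream of these genes, the 250 bases before each start are given from RefSeq's GRCr8 assembly, 5′ to 3′ on the gene's strand. They are chr11:65448320-65448569 on the minus strand for Retnlb, chr2:188507434-188507683 on the plus strand for Reg4, chr1:206228785-206229034 on the plus strand for Muc2 and chr6:58435658-58435907 on the plus strand for Agr2. Capitals mark matches on either strand to 3 motifs. TTTATG is a core bound by Cdx and posterior Hox proteins. The zinc finger factors of the GATA family bind a core that reads AGATAA. The E-box form CAGNTG is bound by Atoh1 and other basic helix-loop-helix factors. No match of one motif overlapped a match of another in these 4 windows.
Retnlb: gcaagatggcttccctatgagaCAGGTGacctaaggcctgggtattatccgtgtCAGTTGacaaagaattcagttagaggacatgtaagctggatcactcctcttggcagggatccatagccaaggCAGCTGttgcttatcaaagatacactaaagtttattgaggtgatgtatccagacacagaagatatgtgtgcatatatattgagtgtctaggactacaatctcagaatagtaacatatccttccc
Reg4: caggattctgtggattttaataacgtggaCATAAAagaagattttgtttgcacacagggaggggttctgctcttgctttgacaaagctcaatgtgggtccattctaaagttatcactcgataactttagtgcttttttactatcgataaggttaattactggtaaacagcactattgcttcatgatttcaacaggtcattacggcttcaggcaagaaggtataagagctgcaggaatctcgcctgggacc
Muc2: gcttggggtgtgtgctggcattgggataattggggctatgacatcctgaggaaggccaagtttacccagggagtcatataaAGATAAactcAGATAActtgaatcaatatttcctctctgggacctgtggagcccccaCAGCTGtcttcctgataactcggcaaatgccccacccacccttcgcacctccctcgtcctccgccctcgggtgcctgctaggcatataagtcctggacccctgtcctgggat
Agr2: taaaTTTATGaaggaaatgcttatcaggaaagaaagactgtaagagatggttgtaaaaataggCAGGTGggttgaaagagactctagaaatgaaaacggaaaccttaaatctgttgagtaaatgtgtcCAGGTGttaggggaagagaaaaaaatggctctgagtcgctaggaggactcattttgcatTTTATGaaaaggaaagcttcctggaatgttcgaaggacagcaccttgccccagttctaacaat

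Of the 10 members, 9 had an entry among the promoter sequences. TTTATG was in the windows of Agr2, at 2 places, and Reg4, at 1 place, and in 11.4% of 33360 rat promoters of the same length. AGATAA was in the windows of Muc2, at 2 places, and Spink4, and in 10.3% of all promoters. CAGNTG was in the windows of 6 members, with 3 places in Retnlb, 2 in Agr2 and 1 in Muc2, and in 43.4% of all promoters. These matches describe letters in the window and say nothing of binding.

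All 10 genes had a lower mean on high protein. Of all tested genes 48.5% had a difference below 0, and the median difference was -0.49 over the members against 0.01 over all genes. Since the diet contrast helped to choose the members, nothing is read from these counts. In none of the 10 were the diets' values separate, against 0.0957% of all genes that were fully lower and 0.287% that were fully higher on high protein. Over all genes, 0 of 10451 passed limma's test at a Benjamini-Hochberg adjusted p under 0.05, and 694 (6.64%) had an unadjusted p under 0.05, of which 311 (2.98%) were lower and 383 (3.66%) higher. No other test program was run. Differences below 0 were also found for 11 of 13 colonocyte, 7 of 8 epithelial, 9 of 9 smooth muscle and 9 of 9 macrophage markers. A lower mean on high protein was thus not particular to the goblet cell genes. In bulk tissue, fewer goblet cells and less RNA per goblet cell cannot be told apart.

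**Figure D1:**
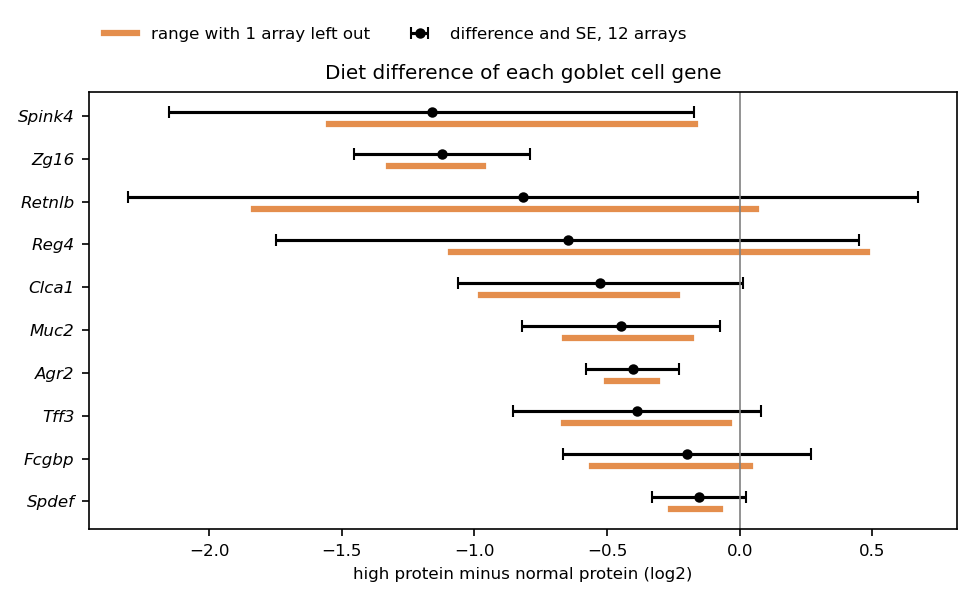
Difference in log2 intensity, high protein minus normal protein, with its standard error (n = 6 arrays per diet) for the 10 members, and the same difference with single arrays left out. All 10 differences lie below 0, from -1.16 for Spink4 to -0.15 for Spdef, and Zg16 at -1.12 has the narrowest error of those below -0.5.

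Zg16 encodes a lectin-like protein of the mucus that binds the cell wall of Gram-positive bacteria. On high protein its lowest, median and highest values were 11.68, 12.44 and 13.13. On normal protein they were 12.57, 13.92 and 14.13. All 6 high protein arrays lay below the normal protein mean, yet the diets overlapped: high protein replicates 4 and 5 were above normal protein replicates 1 and 6. Zg16 averaged 12.44 ± 0.56 on high protein and 13.56 ± 0.72 on normal protein (SD, n = 6 each), a difference of -1.12 ± 0.33 (SE), or 2.18-fold higher signal on normal protein. A mean at least 2-fold lower on high protein was found for 0.22% of all genes. Since the diet contrast helped to choose the members, nothing is read from this share. The difference was -0.88, -0.92 and -1.57 within the 3 slides, each of which held 2 arrays of each diet. With single arrays left out it ran from -1.32 to -0.97, and it was -1.01 with the Hoxb6 level in the fit and -1.13 with the Hoxb13 level in the fit. Neither Hox gene separated it: the arrays of high Hoxb6 had 11.98 to 12.98 within a span of 11.68 to 14.13 over the rest.

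The gene most like Zg16 over the 12 arrays was Lypd8 (Pearson r 0.92), which encodes a colonic surface protein that in mice holds flagellated bacteria away from the epithelium. Lypd8 averaged 14.92 ± 0.12 on high protein and 15.10 ± 0.15 on normal protein (SD, n = 6 each). Its difference of -0.19 ± 0.08 (SE) had a limma adjusted p of 0.73. Mboat7 and Cfl1 came next in likeness to Zg16, each with r 0.89.

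**Figure D2:**
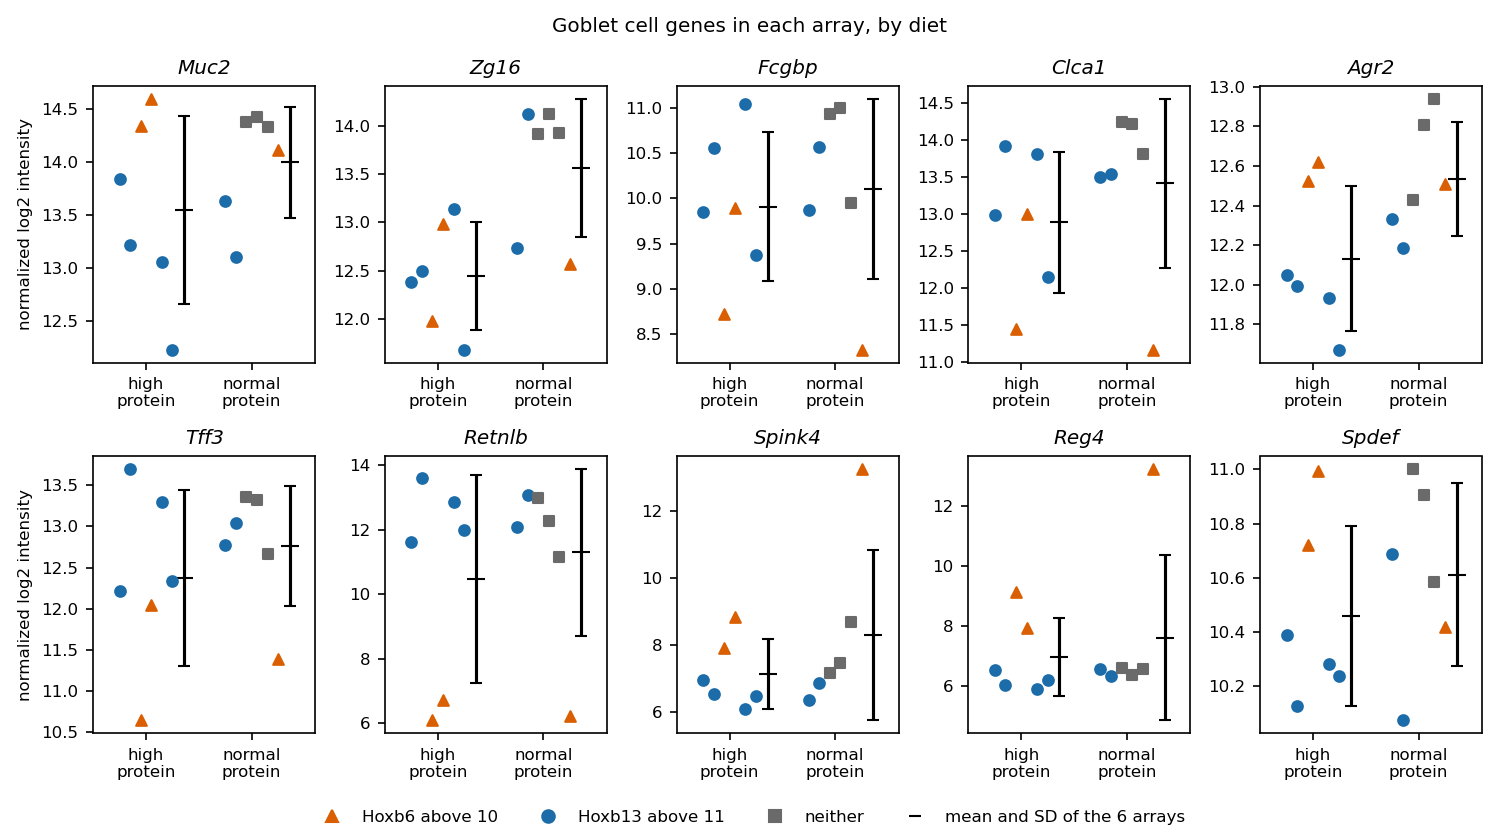
Log2 normalized intensity of the 10 members on each array, high protein left and normal protein right, with diet means and SD (n = 6 arrays each). Triangles are arrays with Hoxb6 above 10, circles those with Hoxb13 above 11 and squares the rest. The diets overlap for every gene. Retnlb is 6.09 to 6.74 in the 3 triangles, and Reg4 and Spink4 reach 13.25 and 13.26 in 1 normal protein array.

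Muc2, the structural mucin of colonic mucus, had 12.23, 13.53 and 14.60 as its lowest, median and highest value on high protein. On normal protein it had 13.10, 14.22 and 14.42. The high protein arrays spread over both ends of the range, with the lowest array (replicate 6) and the highest (replicate 4). It averaged 13.55 ± 0.88 on high protein and 14.00 ± 0.52 on normal protein (SD, n = 6 each), a difference of -0.45 ± 0.37 (SE). Without high protein replicate 6 the difference was -0.19. The values followed Hoxb13: the 6 arrays of high Hoxb13 had 12.23 to 13.84, and the other 6 had 14.11 to 14.60, with no overlap. This held for the brightest probe only, as the dimmer probes of Muc2 overlapped. With the Hoxb13 level in the fit, an alternative added after the data were seen, the diet difference of Muc2 was -0.14. It was -0.65 with the Hoxb6 level, -0.66 without high protein replicate 4 and -0.89 without the 3 arrays of high Hoxb6.

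Agr2 encodes a protein disulfide isomerase of the endoplasmic reticulum that mice need to make Muc2. Its high protein values were 11.67, 12.02 and 12.62 (lowest, median, highest), and its normal protein values were 12.18, 12.47 and 12.94. The lower values were again those of high Hoxb13, with 11.67 to 12.33 there against 12.43 to 12.94 in the other 6 arrays. Within both classes the diets could be set side by side. Among arrays of high Hoxb13, high protein had 11.67 to 12.05 and normal protein 12.18 to 12.33; among the others, high protein had 12.52 to 12.62, inside the 12.43 to 12.94 of normal protein. It averaged 12.13 ± 0.37 on high protein and 12.53 ± 0.29 on normal protein (SD, n = 6 each), a difference of -0.40 ± 0.17 (SE), or -0.26 with the Hoxb13 level in the fit. It was -0.63 without the 3 arrays of high Hoxb6 and -0.21 with median scaling. Agr2 was the member with the most repeats on the array: its probe was printed in 10 spots, all flagged good, whose SD within an array was 0.11 to 0.29.

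Spdef, an ETS transcription factor that drives goblet cell maturation, moved least among the members. Its lowest, median and highest values were 10.13, 10.34 and 10.99 on high protein and 10.07, 10.64 and 11.00 on normal protein. The ranges nearly coincided, and the difference was -0.15 ± 0.18 (SE). It was 0.02 when arrays were scaled to their medians instead of quantile normalized, and -0.39 without the 3 arrays of high Hoxb6. Across the 12 arrays Muc2 ran with Agr2 (r 0.88) and with Spdef (r 0.81), and Agr2 with Spdef (r 0.69), over arrays that share diet, slide and Hoxb13 class.

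The Hoxb13 split of Muc2 and Agr2 was shared by Spink4, described below. By the probe used for each gene, 3 of 10 members were thus lower in every array of high Hoxb13. For Muc2 the dimmer probes overlapped, and for Spink4 the arrays nearest the split were dim, so the split was clear for Agr2 only. The split was noticed in these values and is a description. Over all tested genes it held for 1.68%, and 1.88% were higher in every such array. The arrays of high Hoxb13 hold 4 of the 6 high protein samples, and the diet difference of these genes and the Hoxb13 difference cannot be fully told apart with this number of arrays.

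**Figure D3:**
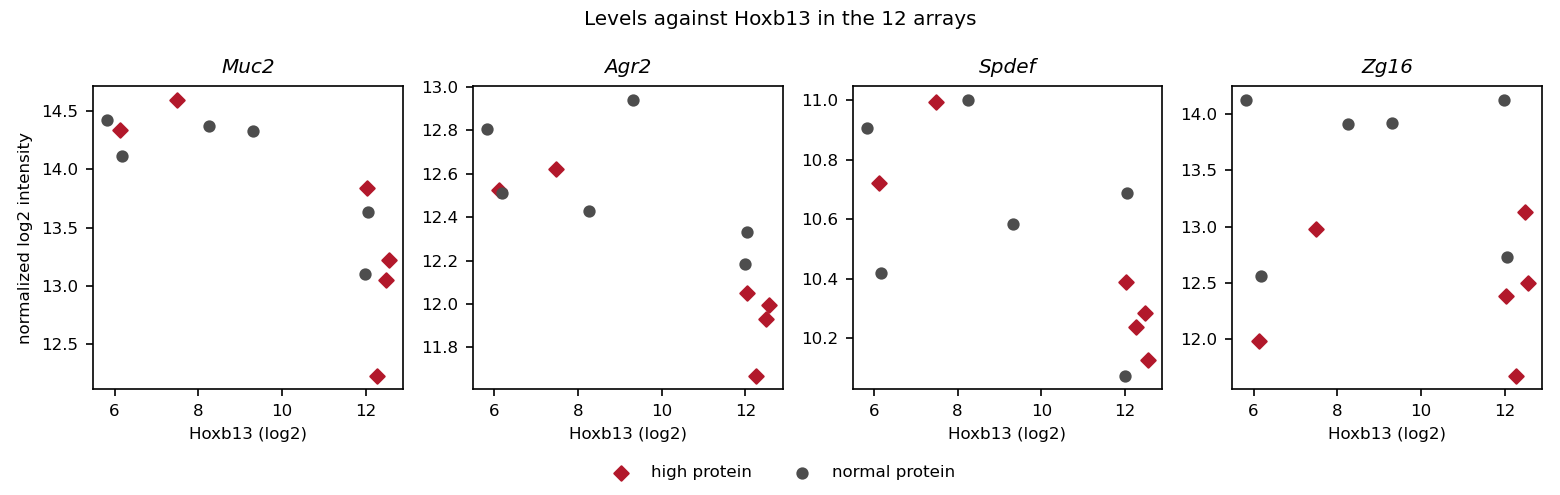
Log2 intensity of members against the Hoxb13 level of the same array, one point per array (12 arrays), high protein and normal protein in different colours. The 6 arrays with Hoxb13 above 11 lie at 12.23 to 13.84 for Muc2 and 11.67 to 12.33 for Agr2, below the other 6 arrays.

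Clca1, Fcgbp, Tff3 and Retnlb correlated with each other over the arrays, and each had its lowest value in one of high Hoxb6. Clca1 encodes a secreted metalloprotease that processes mucus. On high protein it ran from 11.45 to 13.92, with the middle arrays at 12.99 and 13.01. On normal protein it ran from 11.17 to 14.25 with a median of 13.68. The lowest array of each diet was one of high Hoxb6, high protein replicate 3 and normal protein replicate 6. It averaged 12.89 ± 0.95 on high protein and 13.41 ± 1.15 on normal protein (SD, n = 6 each), and the difference of -0.52 ± 0.54 (SE) was smaller than its error. It was -0.97 ± 0.40 (SE) without normal protein replicate 6, -0.24 without high protein replicate 3 and -0.16 with the Hoxb6 level in the fit. The spot of high protein replicate 6 was not flagged good although its value was 12.15.

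Fcgbp encodes a large protein of the mucus gel with von Willebrand domains that is bound to Muc2. It had 8.72, 9.88 and 11.05 on high protein and 8.33, 10.26 and 11.00 on normal protein (lowest, median, highest). The ranges coincided, with high protein replicate 3 and normal protein replicate 6 again lowest in their diet. The difference of -0.20 ± 0.47 (SE) was 0.04 without high protein replicate 3 and 0.11 with the Hoxb6 level in the fit. It was -0.56 without normal protein replicate 6 and -0.26 without all 3 arrays of high Hoxb6. Its neighbour in the gene table, Fcgbpl1, was 11.54 to 12.75 in the arrays of high Hoxb6 and 12.60 to 14.06 in the others. Whether the probes of such neighbouring relatives share signal was not tested.

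Tff3 encodes a trefoil peptide that supports repair of the epithelium. On high protein it had 10.65, 12.28 and 13.69, and on normal protein 11.39, 12.90 and 13.36 (lowest, median, highest). In the 3 arrays of high Hoxb6 it was 10.65 to 12.04, below the 12.22 to 13.69 of the other 9, a gap of 0.18. The difference by diet was -0.39 ± 0.47 (SE), and -0.04 without high protein replicate 3 or with the Hoxb6 level in the fit. It was -0.66 without normal protein replicate 6, -0.65 without high protein replicate 2 and -0.69 with the Hoxb13 level in the fit.

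Retnlb encodes a resistin-like peptide that goblet cells secrete and that kills Gram-negative bacteria in mice. In the 3 arrays of high Hoxb6 it was 6.09 (high protein replicate 3), 6.74 (high protein replicate 4) and 6.22 (normal protein replicate 6). Their raw signals over background were 17, 48 and 17 intensity units, and these spots were not flagged good. In the other 9 arrays it was 11.62 to 13.60 on high protein and 11.14 to 13.08 on normal protein, all flagged good. No array lay between the classes, and the low values, not well above background, give only a bound. The upstream window of this gene, shown above, holds 3 E-box matches. Over all 12 arrays it averaged 10.48 ± 3.23 on high protein and 11.30 ± 2.58 on normal protein (SD, n = 6 each). The difference of -0.82 ± 1.49 (SE) moved with the low arrays kept: it was 0.20 without the 3 arrays, 0.06 without high protein replicate 3 and -1.83 without normal protein replicate 6.

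Retnlb and Tff3 were thus the 2 of 10 members that were lower in all 3 arrays of high Hoxb6 than in the other 9, against 2.71% of all genes. The genes were chosen with this pattern in view, so nothing is read from the count. Clca1 and Fcgbp overlapped the others by high protein replicate 4, at 13.01 for Clca1 and 9.90 for Fcgbp. Across the 12 arrays Fcgbp and Clca1 ran closest (r 0.94), and Tff3 correlated with Clca1 at 0.91, with Fcgbp at 0.90 and with Retnlb at 0.90. Muc2 ran with none of these, at -0.51 to 0.03. The points share diet, slide and Hoxb6 class.

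**Figure D4:**
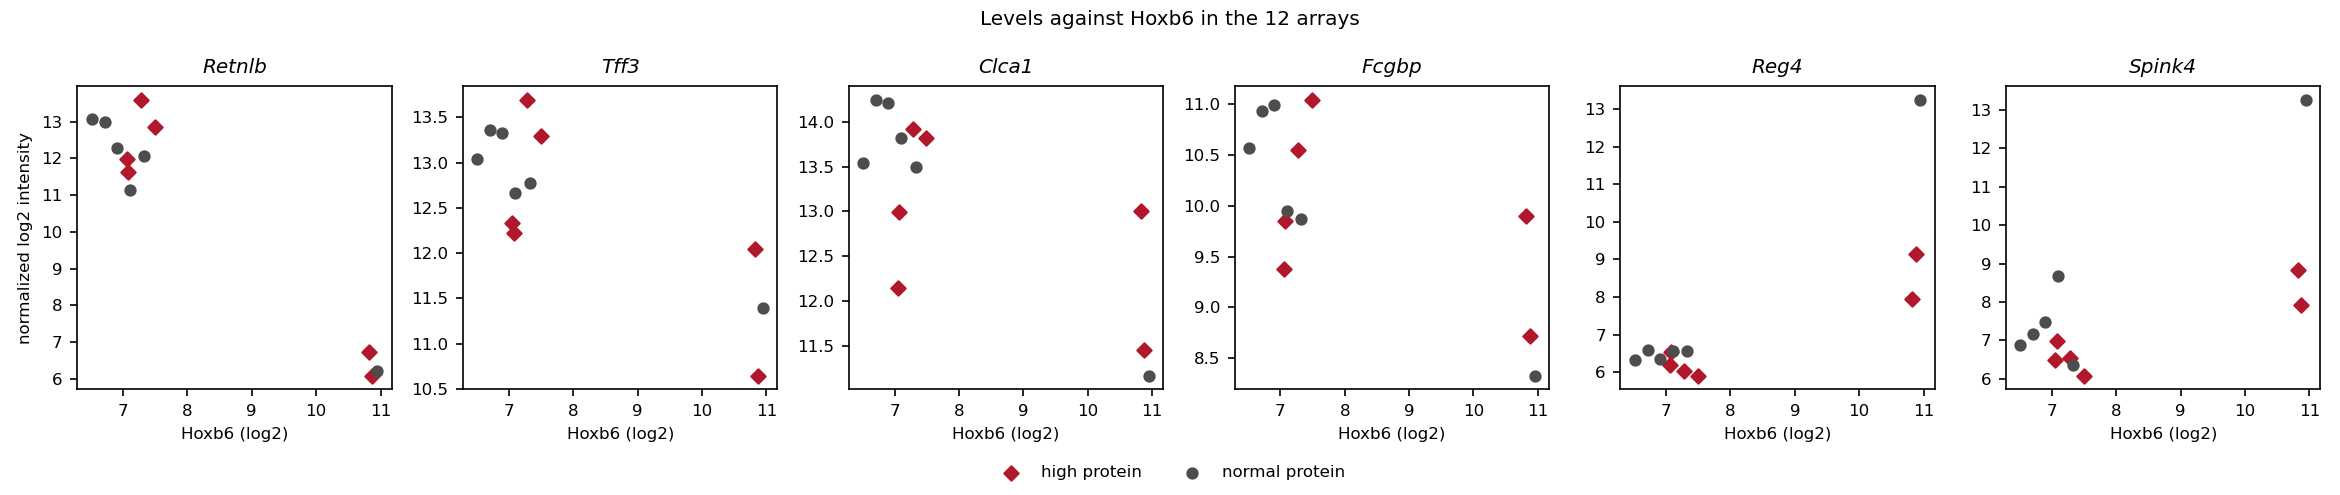
Log2 intensity of members against the Hoxb6 level of the same array, one point per array (12 arrays), high protein and normal protein in different colours. The 3 arrays with Hoxb6 of 10.82 to 10.95 lie at 6.09 to 6.74 for Retnlb and 10.65 to 12.04 for Tff3, below the other 9, and at 7.93 to 13.25 for Reg4, above them.

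Reg4 and Spink4 ran the other way, each with its highest value in 1 array. Reg4 encodes a secreted C-type lectin-like protein of the Reg family. It was 9.15 in high protein replicate 3, 7.93 in high protein replicate 4 and 13.25 in normal protein replicate 6, the 3 arrays of high Hoxb6. Elsewhere it was 5.91 to 6.54 on high protein and 6.33 to 6.60 on normal protein, a level near the dim end of these arrays. The raw signals over background of the 3 arrays were 545, 184 and 8310 intensity units in that order. Reg4 was the 1 member higher in all 3 arrays of high Hoxb6, against 2.02% of all genes, a pattern it was chosen for. Its top array stood 4.10 log2 units (17.1-fold) above the next. Only 6 of the 12 arrays had its spot flagged good, which is the fewest the filter allowed. They include the 3 of high Hoxb6, without which it would not have been tested. The difference by diet was -0.65 ± 1.10 (SE), and 0.48 without normal protein replicate 6 or -1.09 without high protein replicate 3.

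Spink4 encodes a small peptide of the Kazal protease inhibitor family that goblet cells secrete. It was 13.26 in normal protein replicate 6, with a raw signal over background of 8514 units. The next array, high protein replicate 4, had 8.83, which is 4.43 log2 units (21.6-fold) lower. Its lowest, median and highest values were 6.08, 6.76 and 8.83 on high protein and 6.36, 7.32 and 13.26 on normal protein. The split by Hoxb13 held here too, with 6.08 to 6.98 in the 6 arrays of high Hoxb13 and 7.16 to 13.26 in the others. However, 2 of its 12 spots were not flagged good, and the arrays nearest the split were dim. They were high protein replicate 1 at 6.98 and normal protein replicate 3 at 7.16. Their raw signals over background, 80 and 47 units, had the opposite order. The diet difference of -1.16 ± 0.99 (SE) was -0.17 without normal protein replicate 6, -0.50 with the Hoxb13 level and -1.94 with the Hoxb6 level in the fit. Within the slide that holds this array it was -3.31, against 0.00 and -0.17 within the other slides.

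A top array more than 2 log2 units above the next was found for Reg4 and Spink4 and for 1.04% of all genes. Reg4 and Spink4 correlated at 0.92 over the 12 arrays, both with their highest value in normal protein replicate 6. Tff2, a trefoil peptide of gastric mucus whose gene lies between those of Tff3 and Tff1, had its spot flagged good in the same array alone. It was 10.48 there and 5.76 to 6.28 in the other 11 arrays, and it did not pass the filter for testing. Tff1, the third trefoil peptide, was 8.81 in normal protein replicate 6, and 9.05 in normal protein replicate 4. In normal protein replicate 6 the epithelial markers had their lowest mean of all 12 arrays, 11.51, but high protein replicate 3 was almost the same at 11.52. The mean over 7 of 13 Paneth and small intestine markers was 10.11 in normal protein replicate 6, inside the 9.01 to 10.35 of the other arrays. Defa5, Mmp7, Sis, Lct, Apoa4 and Alpi, which mark Paneth cells or the small intestine, were not tested. Of the 13 listed markers 12 had a probe by name, so not all of these were measured, and those that were did not pass the filter. A gene raised in normal protein replicate 6 alone cannot pass it, as with Tff2, so their absence says nothing of that array. The part of cell make-up in the high Reg4 and Spink4 was not tested.

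Of the 10 members 8 spanned more than 2 log2 units over the 12 arrays, against 4.71% of all genes. Since genes were chosen for low or high values in some arrays, nothing is read from this. Agr2 and Spdef were the 2 with narrower ranges. Where a member had several probes they pointed the same way by diet. The 2 dimmer probes of Muc2 gave differences of -0.30 ± 0.32 and -0.17 ± 0.28 (SE), and the second probe of Spdef gave -0.23 ± 0.15 (SE). For Muc2 these dimmer probes did not keep the Hoxb13 split: in both, the arrays of high Hoxb13 overlapped the other 6, for one of them at 6.81 to 7.43 against 7.17 to 8.56.

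The genes most like a member over the 12 arrays were named by a ranking on Pearson's r, with 3 per member. Muc2 and Agr2 shared Epsti1 as first (r 0.97 and 0.92), and Muc2 was followed by Ramp1, a receptor-activity modifying protein, and Kifc2. Agr2 was followed by Tnfrsf11a and Ccl11. Clca1 and Fcgbp were each other's first, followed by Tbc1d2 and Ang for Clca1 and by Gipc2 and Btnl8 for Fcgbp. Tff3 was most like Tbc1d2 (r 0.95), and Prkcd (r 0.93) was also among its 3. Retnlb was most like its chromosomal neighbour Retnla (r 0.97), Mptx1 and Galnt18. Mptx1, a pentraxin of the mucosa, was 6.16 to 8.59 in the arrays of high Hoxb6 and 10.91 to 14.42 in the others. The first for Spink4 were Slc31a2, Psat1 and Pdlim2, for Reg4 C1h19orf12, Atf5 and Adgrf5, and for Spdef Slc27a4, Cmpk1 and Cxxc5. Slc31a2, Psat1, Pdlim2, C1h19orf12, Atf5 and Adgrf5 all had their highest value in normal protein replicate 6.

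Genes that surround the members in the mucus pathway were compared by diet over 8 lists, with 142 of 192 genes tested. By limma's test 0 of 142 passed at an adjusted p under 0.05, and 16 were lower and 2 higher on high protein at an unadjusted p under 0.05 (12.7% in all, against 6.64% of all genes). The balance of directions depended on the setting, with 3 lower and 6 higher under median scaling, 1 lower and 6 higher within the slide of normal protein replicates 5 and 6, and 23 lower and 18 higher with the Hoxb6 level in the fit. Their median difference was -0.05, with 87 below 0. The lists were chosen with earlier results of these data known, so nothing is read from these counts or from those of single lists. Among 34 tested genes of protein folding and export from the endoplasmic reticulum, 11 were lower and 0 higher at the unadjusted threshold. Of all genes 2.98% were lower and 3.66% higher. The median difference of the list was -0.15, and 29 of 34 were below 0, against 48.5% of all genes. Hsp90b1, the chaperone of the reticulum, averaged 9.45 ± 0.17 on high protein and 9.81 ± 0.12 on normal protein (SD, n = 6 each). Its difference was -0.36 ± 0.09 (SE), and those of Sdf2l1 and Fkbp11, helpers of folding in the reticulum, were -0.52 ± 0.12 and -0.57 ± 0.14 (SE); the limma adjusted p was 0.68 for all 3 genes. The count of 11 was 2 with arrays scaled to their medians and 1 lower and 1 higher within the slide of normal protein replicates 5 and 6. In both settings 18 of 34 were below 0, with medians of -0.01 and -0.02, so the common direction against 0 was not kept. Over all tested genes the median was 0.10 with median scaling and 0.02 within that slide. The list's median lay below these values.

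The factors that specify goblet cells showed no common direction, with 6 of 13 tested genes below 0. Atoh1, which commits cells to the secretory lineage, averaged 7.86 ± 0.22 on high protein and 7.76 ± 0.25 on normal protein (SD, n = 6 each). Cdx2, the intestinal homeobox factor, differed by -0.44 ± 0.20 (SE), Foxa1 by 0.28 ± 0.12 and Xbp1, a factor for secretory capacity, by -0.30 ± 0.14, each with a limma adjusted p of 0.73. Among 27 tested genes of 40 listed for other goblet cell products, 3 were lower and 0 higher at the unadjusted threshold. They were Tff1 (-1.27 ± 0.47), Fxyd3, a regulator of ion pumps (-0.34 ± 0.13), and Lypd8, with limma adjusted p of 0.70, 0.70 and 0.73. Tff1 averaged 6.21 ± 0.35 on high protein and 7.48 ± 1.24 on normal protein (SD, n = 6 each). Its spot was flagged good on the fewest arrays the filter allowed, and high protein replicate 4 was the only high protein array among them. Tff1 was thus tested only through the normal protein arrays, where it is high, and nothing is read from its place among the lower genes. Its highest values were 9.05 and 8.81, in normal protein replicates 4 and 6. For that list the count was 9 lower and 4 higher without the 3 arrays of high Hoxb6, and 6 lower and 1 higher without high protein replicate 4 alone.

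The enzymes that put sugars and sulfate on mucins split evenly, with 13 of 28 below 0 and a median of 0.00. C1galt1, which extends the first sugar of mucin chains, was the 1 gene past the unadjusted threshold, at 0.28 ± 0.11 (SE). Slc35a1, the carrier of activated sialic acid, differed by -0.35 ± 0.19 and Papss2, which makes the sulfate donor, by 0.70 ± 0.40 (SE). Of 11 listed membrane-bound mucins 6 had a probe by name and only 3 were tested. Muc1 differed by -0.32 ± 0.45, Muc3a by -0.19 ± 0.31 and Muc4 by 0.27 ± 0.46 (SE), none beyond its error. No gene of granule release (15 tested) or of the ion supply for mucus (13 tested) passed the unadjusted threshold. The largest difference among them was that of Car1, a carbonic anhydrase of colonocytes, at -1.62 ± 0.85 (SE). Car1 also split with Hoxb13, at 10.03 to 13.13 in the arrays of high Hoxb13 against 13.38 to 14.81 in the others. Most arrays of high Hoxb13 were high protein. Of 11 signalling genes, Il13ra1, a receptor chain for interleukin 13, was lower at the unadjusted threshold, by -0.33 ± 0.15 (SE).

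The pathway genes were set against the Hox levels as well. In all 3 arrays of high Hoxb6, 16 of 142 (11.3%) were below the other 9, against 2.71% of all genes, and 1 was above. The following were chosen after their values were seen, apart from the membrane mucins and Foxa2. Muc1 was 6.01 to 6.62 in the arrays of high Hoxb6 and 7.55 to 8.73 in the others, and Muc4 was 7.02 to 9.13 against 9.22 to 10.10. Muc3a did not separate, at 10.66 to 12.75 against 11.67 to 12.70. St6galnac1, which caps mucin sugars with sialic acid, was 7.44 to 8.16 against 8.30 to 9.49. Foxa2, a factor of goblet cell differentiation, was 6.83 to 7.66 against 7.80 to 9.33. Bcas1, a goblet cell marker, was 9.19 to 10.04 against 10.60 to 13.18. The gene above was Gcnt3, which branches mucin sugars, at 9.33 to 9.68 against 6.89 to 9.07.

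In the 6 arrays of high Hoxb13, 11 of 142 (7.75%) were above and 5 (3.52%) below the other 6, against 1.88% and 1.68% of all genes. Again chosen after their values were seen, B3gnt7, which extends sugar chains that are then sulfated, was 12.77 to 13.65 in the arrays of high Hoxb13 and 7.24 to 9.93 in the others. Chst5, a sulfotransferase, was 7.26 to 8.48 against 5.89 to 6.35. Best2, the anion channel of colonic goblet cells, was 8.56 to 10.11 against 6.92 to 7.73. Dmbt1, a mucosal scavenger receptor protein, was on the other side, at 7.01 to 9.25 against 9.73 to 11.13. So were Muc2 by its brightest probe, Agr2 and Spink4, the last with dim values next to the split. These are descriptions of single arrays, and the classes also differ in how many arrays of each diet they hold.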

How the data were processed

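The deposited scanner files give, per the file headers, the intensity of each spot and of its local background on a linear scale, from GenePix scans at 532 nm and a photomultiplier gain of 600. Deposited flags mark good spots, and a deposited percent of saturated pixels showed at most 3 spots of an array with most of their pixels saturated. The series value table holds log2 values per the labels. Its rows matched the scanner values only with IDs moved by 1 row (mean r 0.941, against 0.106 as given), its column medians were 4.36 to 4.45, its scale and direction then followed the scanner values, and its centring is unknown. It served as an alternative. The submitters' processing notes name RMA.

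Background was corrected with normexp (offset 50) and arrays were quantile normalized together. Spots of a probe were averaged. The filter kept a probe with a good flag on 0.5 or more of its spots in 6 or more of the 12 arrays, and the brightest probe stood for a gene. Of 30367 probes 13204 passed, of which 1467 had no name, giving 10451 genes. RefSeq accessions (GRCr8) named 18355 probes and the others kept the array's name. The 2-group fit used limma (version 3.58.1, R version 4.3.3), and p-values were Benjamini-Hochberg adjusted over all genes, with 0.05 as the limit. The number of arrays limits precision.

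Members, gene lists and the naming rule (all members, up to 3 genes of smallest p per list, the tested membrane mucins and goblet factors, 3 most alike genes per member, of which 1 gene is not reported here, and the Hox genes) were chosen with earlier results of these data known. Lists of epithelial, smooth muscle, macrophage, colonocyte, fibroblast, lymphocyte and small intestine markers described the samples. The fit was also run with known changes added to these arrays' deviations from their diet means under shuffled labels. The outcome is not given here, and nothing is read from it. Alternatives were background, scaling, filter, probe choice, slide, replicate number, array weights, Hox levels and single arrays left out.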

Additional observations from a re-analysis of the deposited data

Results flagged for a closer look

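Within a diet, 5 of 20 combinations of member and diet had 1 array whose gap to the nearest of the other 5, divided by the whole range, was above Dixon's limit of 0.625. Chance flags about 1 in 20 groups, but these genes were chosen partly for values that stand out in single arrays, so the number is a description only. All 5 were normal protein replicate 6, so they are 1 array seen in 5 genes. It had the lowest Clca1 of its diet, 11.17 against 13.50 for the next array. It had the lowest Tff3, 11.39 against 12.67. Retnlb was lowest there too, 6.22 against 11.14. Spink4 was highest, 13.26 against 8.69, and so was Reg4, 13.25 against 6.60. The same array had Hoxb6 at 10.95, the only normal protein array above 10. On high protein no array stood apart by this measure, where Hoxb6 was above 10 in 2 arrays.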

How the results depend on the processing

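No gene passed the adjusted threshold in the limma fit, and none did in any alternative except within slide 3 (high protein replicates 3 and 5, normal protein replicates 2 and 4), where 1 did. The count of genes at an unadjusted p under 0.05 was 694. It was 1206 with median scaling, 1259 with no filter, 1329 without the 3 arrays of high Hoxb6, 1338 with the Hoxb6 level in the fit and 1321 with array weights, and 488 to 878 with single arrays left out. Median scaling gave 78 lower and 1128 higher, normexp with the 75th percentile 481 lower and 318 higher. Members with a lower mean on high protein numbered 10, and 8 to 10 with single arrays left out. They numbered 6 with probes flagged good on all 12 arrays, where fewer members were tested, and 5 within slide 2 (high protein replicates 4 and 6, normal protein replicates 5 and 6). Pathway genes at the unadjusted threshold numbered 18. They numbered 9 with median scaling, 7 within slide 2, 10 within slide 3, 52 without the arrays of high Hoxb6, 41 with the Hoxb6 level and 36 with array weights, and 14 to 26 with single arrays left out. The cause was not tested.

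Of 286 member differences over these settings 3 moved by a pooled SD or more: Spdef at -0.59 within slide 1, and Spink4 at -3.31 and Reg4 at -2.84 within slide 2. The difference was above 0 for Fcgbp (0.11), Retnlb (0.54) with the Hoxb6 level, Retnlb without the arrays of high Hoxb6 (0.20), Reg4 (0.08) with the Hoxb13 level and Spdef (0.02) with median scaling. Within slides it was above 0 for Retnlb (0.08) in slide 1 (high protein replicates 1 and 2, normal protein replicates 1 and 3), for Fcgbp (0.50), Clca1 (0.09), Tff3 (0.16), Retnlb (0.68) and Spdef (0.11) in slide 2, and for Reg4 (1.19) and Spdef (0.01) in slide 3. With single arrays left out it was above 0 for Fcgbp (0.04) and Retnlb (0.06) without high protein replicate 3 and for Reg4 (0.48) without normal protein replicate 6. Replicate numbers are shared by the diets, but same-numbered arrays deviated together at -0.11 to 0.40, and 3 arrays were most like the array of their own number, so the numbers were not taken as pairs. With the replicate block 0 genes passed, 10 members were lower and 22 pathway genes were past the unadjusted threshold. Values of Retnlb, Reg4 and Spink4 near 6 lie at the dim end of the arrays and have no order.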
